A study of Mus musculus with 30 samples.

Results

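Beta-catenin stabilized cultures of brain endothelial cells (ECs) were compared with ECs isolated acutely from adult mouse brain, by RNA-seq. The comparison used 6 of the 30 samples of the series, taken by their labels: stabilized cultures 1 to 4 and acute libraries 1 and 2. It asks which transcripts of brain ECs in vivo were still low, and which transcripts induced by culture were still high, in cells with a form of beta-catenin that escapes degradation. The stabilized cultures came from Ctnnb1flex3/+;Pdgfb-CreER;Tie2-GFP mice that had received 4-hydroxytamoxifen as pups, so that the Pdgfb promoter limited recombination to ECs. Vascular fragments from pooled brains of adult mice were plated, selected with puromycin and grown for 8 days without the other cells of the brain. Stabilized cultures 1 and 2 were made by method A, a papain digest, and cultures 3 and 4 by method B, homogenisation followed by collagenase and dispase. The 2 libraries of each method were wells of 1 experiment. Acute libraries 1 and 2 held GFP-positive cells sorted by flow cytometry from cerebrum and cerebellum of adult Tie2-GFP mice. In these mice the Tie2 promoter marks ECs, and they carried neither Ctnnb1flex3 nor CreER. The paper states that the data of the 2 regions were combined, those of cerebellum having been published before. A further 4 libraries of WT cultures served for a direct comparison at the same read format. WT 1 and 2 were C57BL/6J cells made by method A, WT 5 and 6 were Ctnnb1flex3/+;Tie2-GFP cells without Cre made by method B, and both had the same drug and the same 8 days of culture. All of these mice were labelled as adult males.

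Beta-catenin carries the canonical Wnt signal. In the absence of Wnt, a complex built on Axin and APC presents beta-catenin to casein kinase 1 and GSK3, and the phosphorylated protein is degraded. In the presence of Wnt, beta-catenin accumulates and activates transcription with TCF and LEF proteins. In brain ECs this signal is set off by Wnt7a, Wnt7b and Norrin through Fzd4 and its coreceptors, and it is known for inducing and maintaining the blood-brain barrier (BBB): tight junctions, a full set of nutrient transporters and few caveolae. The flex3 allele loses exon 3 of Ctnnb1 after Cre recombination. Exon 3 is printed because its loss defines the stabilized cells, with capitals on codons 33, 37, 41 and 45, which encode the residues phosphorylated by casein kinase 1 and GSK3. It lies at chr9:120950522-120950749 (GRCm38, plus strand), and its 228 bases make 76 codons with 0 bases left over, so that the reading frame continues.
Ctnnb1 exon 3: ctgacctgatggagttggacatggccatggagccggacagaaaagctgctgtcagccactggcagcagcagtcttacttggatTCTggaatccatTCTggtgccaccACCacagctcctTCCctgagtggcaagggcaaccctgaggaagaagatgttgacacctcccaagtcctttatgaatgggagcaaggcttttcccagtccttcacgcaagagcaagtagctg

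The 4 stabilized libraries held 53213098 to 61342434 estimated counts and the 2 acute libraries 94686456 and 55701811. Levels are given as TPM rescaled so that protein-coding genes of the nucleus have the same total in every library, because short noncoding RNAs took unequal shares of the deposited TPM: Mir6236 took 33.8% and 25.0% in the acute libraries, and Rn7s1 took 21.8% to 45.5% in the stabilized ones. Fold changes come from counts and are log2, stabilized minus acute, ± SE, with n = 4 and 2. Levels divide by transcript length and fold changes do not, so that the 2 can disagree for genes whose transcript forms differ. Acute libraries were single reads of 75 cycles from sorted cells and cultures were paired reads of 36 cycles from unsorted cells. Culture, sorting, read format and genotype therefore cannot be told apart in this comparison. Nothing ties the wells to separate animals, so that p-values do not measure the spread between animals. Against acute ECs no term for method was fitted. These p-values therefore rest on the spread among the stabilized wells, the gap between methods A and B included, and between the acute libraries.

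Markers and labels were checked first. The 7 EC markers (Pecam1, Cdh5, Cldn5, Tie1, Erg, Esam and Egfl7) summed to levels of 4030 to 8303 in stabilized cultures and 7626 to 7716 in acute ECs, against 280 to 407 in the GFP-negative cells of the same sorts. Pericyte markers summed to 1367 to 1678 in acute ECs, close to the 1426 to 2099 of GFP-negative cells, and to 15 to 31.6 in stabilized cultures. Erythrocyte markers summed to 16905 and 101490 in the acute libraries and to at most 0.369 in the stabilized ones. In bulk RNA, fewer cells of a type and less RNA per cell cannot be told apart. The male label did not hold for every library. The Y-linked genes Ddx3y, Eif2s3y, Uty and Kdm5d together had 14178 and 14250 counts in acute ECs and 15496 and 13608 in stabilized cultures 1 and 2, but 5 and 11 in stabilized cultures 3 and 4. Xist, the X-inactivation transcript, had 47.1 and 45.7 CPM in stabilized cultures 3 and 4, against at most 0.581 in the other 4 libraries. WT 5 and 6 had Xist with 12 and 10 Y-linked counts, and WT 1 and 2 had both. Methods A and B therefore also differed in these transcripts, and leading counts are given for each method.

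Stabilized cultures stood far from acute ECs. The correlation of log2 levels across genes, which are not independent replicates, was 0.7104 to 0.7404 between stabilized and acute libraries, 0.9275 between the 2 acute libraries, 0.9611 to 0.9656 between methods and 0.9929 or 0.9941 between wells. A gene was called when its adjusted p (edgeR quasi-likelihood test with Benjamini-Hochberg adjustment) was under 0.05, its fold change was over 2 and the deposited TPM was at least 5 in every library of the higher group. Of 13889 genes tested, 2091 (15.1%) were called higher in stabilized cultures and 1528 (11.0%) lower. Counts of called members in the gene lists below are to be read against these shares. The median log2 fold change over all genes was 0.04. Of all genes tested, 37.1% had levels above both acute libraries in all 4 stabilized libraries and 28.3% had levels below both. With the method A wells alone, 1978 (14.5%) were higher and 1243 (9.09%) lower, and with the method B wells alone 2014 (14.8%) were higher and 1532 (11.3%) lower. With an offset for transcript length, 1990 (14.3%) were higher and 2031 (14.6%) lower. With limma on log2(TPM + 1), a scale on which the median of all genes was 0.30, 2211 were higher and 761 lower, so that the balance of higher and lower calls depends on the scale.

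Of the genes low in stabilized cultures, 38.5% were EC-enriched. EC-enriched genes, 1253 of 15101 tested (8.30%), were called higher in GFP-positive than in GFP-negative cells of the same sorts. They made up 589 of the 1528 genes called lower (38.5%), against 9.34% of all genes tested. Genes enriched in GFP-negative cells made up 33 of the 1528 (2.16%, against 7.64% of those tested here and 7.56% of all genes in that comparison). Among the 2091 genes called higher, 106 of the 2045 with a value were EC-enriched (5.18%) and 170 were GFP-negative-enriched (8.31%). Read by EC-enriched gene, 106 of 1253 were higher, 589 were lower and the median log2 fold change was -0.96. Together the 1253 genes took 37.6% and 34.4% of that total level in acute ECs and 27.3%, 27.0%, 23.7% and 23.8% in stabilized cultures 1 to 4. They took 26.7%, 27.2%, 22.1% and 22.1% in the 4 WT cultures of the same read format and 9.1% and 9.2% in GFP-negative cells. The EC-enriched definition uses the same acute libraries as the comparison.

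**Figure D1:**
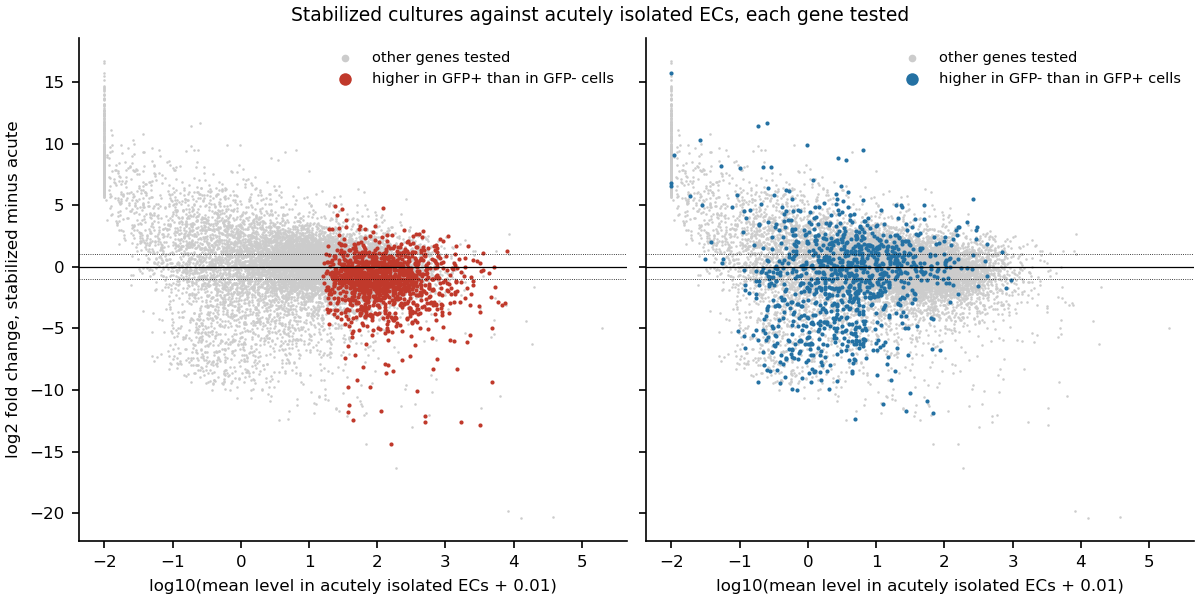
Log2 fold change of stabilized cultures over acute ECs (vertical axis) against the mean level in acute ECs (horizontal axis, log10 of the level + 0.01), 1 point per gene tested. The left panel colours genes called higher in GFP-positive than in GFP-negative cells and the right panel those called lower, with all other genes in grey and dotted lines at a log2 fold change of 1 and -1. The EC-enriched genes on the left lie mostly under 0, with a median of -0.96.

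Most Wnt targets that are active in brain ECs in vivo were low in stabilized cultures. Of 20 listed, 17 could be tested, 3 were called higher, 9 lower and 5 neither, with a median log2 fold change of -2.97. Axin2, a scaffold of the destruction complex and a standard readout of the pathway, had levels of 161 and 116 in acute ECs and 3.10, 2.93, 2.48 and 2.77 in stabilized cultures. Every stabilized library was below both acute ones, and the log2 fold change was -4.98 ± 0.17 (adjusted p = 3.03e-05). In the 4 WT cultures Axin2 was at 0.607, 0.254, 0.249 and 0.271, so that the stabilized cultures lay between WT cultures and acute ECs. Stabilized minus WT, the log2 difference was 2.80 ± 0.15 (adjusted p = 0.000797), but the stabilized levels were too low for the call. Among the listed inhibitors of Wnt, Notum, Apcdd1 and Nkd1 were called lower, while Znrf3, Nkd2 and Dkk2 were not called (-2.09, 0.27 and 1.48). Notum, a secreted enzyme that inactivates Wnt ligands, was at 83.0 and 174 in acute ECs and 0.241, 0.494, 0.217 and 0.306 in stabilized cultures (-7.85 ± 0.35, adjusted p = 4.86e-05). Apcdd1, a membrane inhibitor of Wnt, went from 1301 and 1017 to 77.1, 72.9, 113 and 106 (-2.97 ± 0.30, adjusted p = 0.000473), and Nkd1, an intracellular inhibitor, from 108 and 140.1 to 5.88, 5.45, 6.05 and 4.57 (-5.11 ± 0.29, adjusted p = 8.87e-05). None of the 3 called had overlapping levels.

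The transcription factors of the pathway were low as well. Lef1 was at 147 and 506 in acute ECs and 13.0, 16.2, 15.6 and 13.1 in stabilized cultures (-4.59 ± 0.20, adjusted p = 4.78e-05). Tcf7 was at 177 and 101 and 5.28, 5.11, 2.46 and 3.26 (-5.16 ± 0.39, adjusted p = 0.00019), and Tcf7l2 at 95.5 and 13.6 and 2.72, 3.15, 1.61 and 2.34 (-3.52 ± 0.38, adjusted p = 0.00059). For all 3 the stabilized libraries were below both acute ones, although the acute pair itself differed by over 3-fold for Lef1 and Tcf7l2. Spock2, an extracellular proteoglycan, had the greatest fall of the list, from 1365 and 1587 to 8.54, 7.47, 6.66 and 7.81 (-8.33 ± 0.25). Ppard and Tnfrsf19 were the remaining members called lower, at -3.12 and -3.88. The 9 lower members stood at a median of 2.89% to 4.40% of their mean acute level in the 4 stabilized libraries and 1.08% to 2.88% in the 4 WT cultures.

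The 3 members called higher were Sp5, Ccnd1 and Myc. Sp5, a zinc finger repressor that answers Wnt in many tissues, was almost absent from acute ECs (0.241 and 0.196) and was at 20.8, 20.2, 42.2 and 34.6 in stabilized cultures (6.07 ± 0.58, adjusted p = 0.000403). WT cultures had as much, 21.4, 17.9, 41.6 and 45.1, and the stabilized minus WT difference was -0.01 ± 0.13 (adjusted p = 0.947). Ccnd1, the G1 cyclin D1, was at 72.9 and 38.4 in acute ECs, 1439.5, 1469, 807 and 857 in stabilized cultures and 661, 765, 482 and 513 in WT cultures. It was higher in stabilized cultures than in acute ECs (3.31 ± 0.48, adjusted p = 0.00166) and 0.78 above WT on the log2 scale, short of the fold required (adjusted p = 0.00287). Myc, a growth regulator, was at 0.970 and 2.56 and 28.0, 28.5, 21 and 19.1 (3.88 ± 0.38, adjusted p = 0.000426).

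Of the receptors and coreceptors, 0 of 8 were higher and 4 were lower, with a median of -0.90. Those lower were Fzd6 (-1.82), Lrp6 (-1.5), Tspan12 (-1.10) and Reck (-1.66), of which Lrp6 is the general Wnt coreceptor, Tspan12 serves Norrin and Reck serves Wnt7. Fzd4, the Norrin receptor, was at 60.8 and 56.7 in acute ECs and 66.9, 77.1, 78.0 and 77.4 in stabilized cultures and was not called (-0.70, with the length offset 0.20). Its levels per length lay above both acute libraries while the difference in counts was negative, which is the disagreement of scales named above. Among beta-catenin, its destruction complex and its nuclear partners, 5 of 12 were lower and 0 higher (median -1.37). Ctnnb1 itself was at 2733 and 2349.8 in acute ECs and 1267, 1279.9, 780.1 and 829 in stabilized cultures (-1.12 ± 0.23, adjusted p = 0.00611), below both acute libraries in all 4. These gene totals do not separate transcripts with and without exon 3. Apc, Gsk3b, Btrc and Tcf7l2 were the other 4 called lower.

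**Figure D2:**
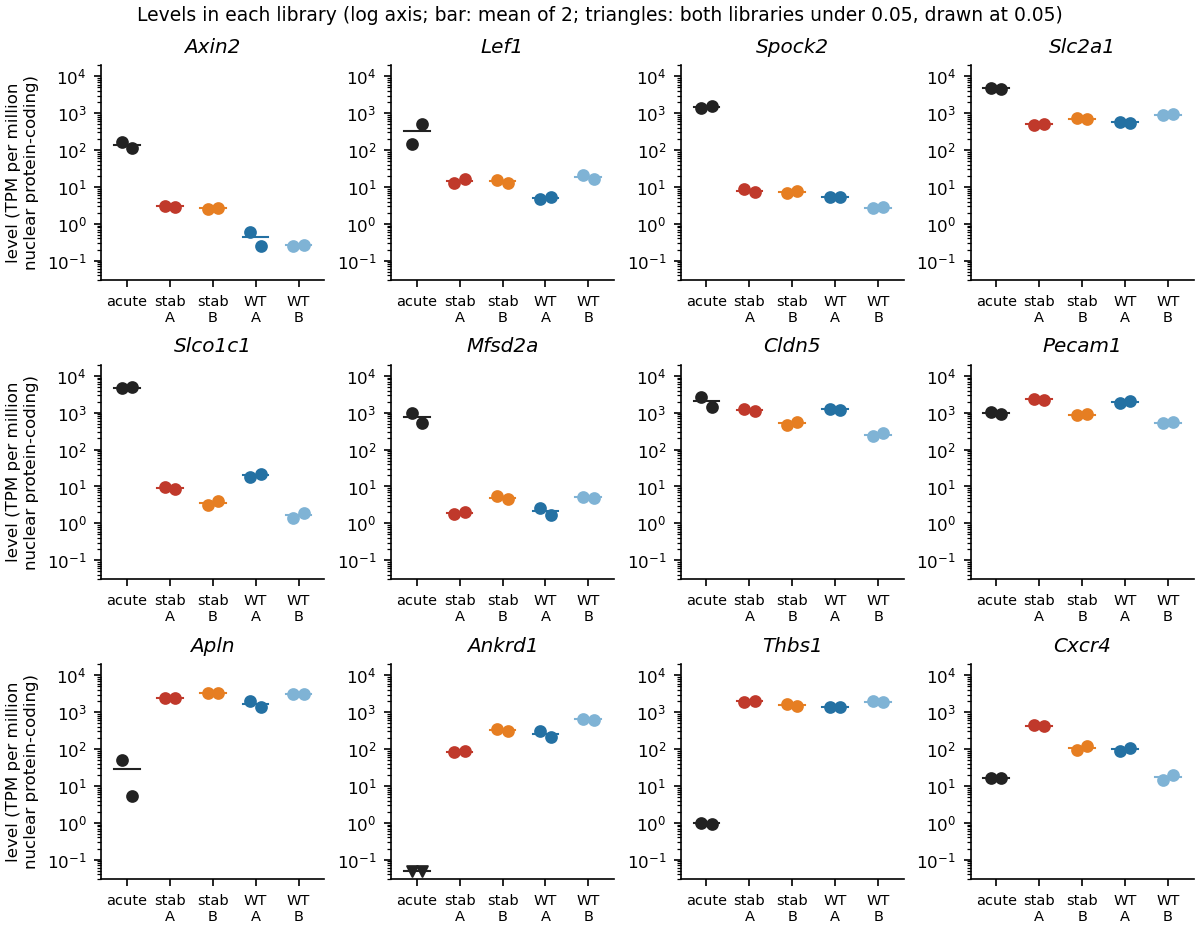
Levels of selected genes (TPM rescaled over nuclear protein-coding genes, log10 axis) in each library, for acute ECs, stabilized cultures and WT cultures of 36 cycles, the cultures split into methods A and B. Each point is 1 library, bars are means of 2 libraries, and triangles at 0.05 stand for pairs with both libraries under 0.05. Axin2 stands at 2.48 to 3.10 in stabilized cultures, between acute ECs (161 and 116) and WT cultures (0.249 to 0.607).

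Nutrient and ion transporters of the BBB fell almost as a group. Of 22 members, all tested, 20 were called lower, 1 higher and 1 neither, and the median log2 fold change was -4.14 against 0.04 for all genes. Slco1c1, which carries thyroxine, was at 4577 and 4922 in acute ECs, among the 10 most abundant EC-enriched genes. In stabilized cultures it was at 9.97, 8.66, 3.05 and 3.96 (-9.37 ± 0.49, adjusted p = 7.59e-05), which left no overlap. Slc2a1, the glucose transporter GLUT1, went from 4928 and 4484 to 492, 509, 730.1 and 700.4 (-2.43 ± 0.33, adjusted p = 0.00127) and so kept more of its level. Mfsd2a, the lysophospholipid transporter for docosahexaenoic acid, went from 967 and 518 to 1.80, 2.04, 5.35 and 4.57 (-7.50 ± 0.63, adjusted p = 0.000271). Slc22a8, an organic anion transporter, was nearly gone, with 556 and 453 against 0.125, 0.153, 0.0613 and 0.149 (-12.57 ± 0.41, adjusted p = 3.03e-05). For these 4 transporters every stabilized library was below both acute ones. Slc7a5 and Slc3a2, the 2 chains of the large neutral amino acid transporter LAT1, changed by -3.83 and -2.83, and the glutamine transporters Slc38a3 and Slc38a5 by -8.29 and -7.54. The called falls ranged from -12.57 to -1.21, the latter for the glutamate transporter Slc1a1. Slc16a9 was called lower at -1.96, a call that the offset for transcript length ended (-0.63, adjusted p = 0.0315).

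The exceptions were Slc12a2 and Slc46a3. Slc12a2, the sodium-potassium-chloride cotransporter NKCC1, was at 19 and 15.4 in acute ECs and 123, 135, 76.5 and 82.6 in stabilized cultures (1.3 ± 0.29, adjusted p = 0.00832). In vivo it was called lower in GFP-positive than in GFP-negative cells, which had 122 and 57.8. Slc46a3 was at 41.6 and 40.5 and 38.8, 37.4, 24.4 and 25.9 and was not called (-0.78). Stabilized minus WT, 0 of the 22 transporters were called and the median difference was 0.06. Within method A, 2 of 21 tested were higher and 2 lower (5.39% and 0.918% of all genes), with a median of -0.07, and within method B 3 of 22 were higher and 0 lower (1.08% and 0.288% of all genes), with a median of 0.32. For Slco1c1 the difference was -1.17 within method A and 1.04 within method B, so that the methods differed in direction. The median level of the 22, as a percentage of the mean acute level, was 4.14% to 5.17% in stabilized cultures and 4.35% to 4.93% in WT cultures.

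The drug efflux pumps split. Abcb1a, the main P-glycoprotein of brain ECs and the basis of the puromycin selection, fell from 2135 and 4170.3 to 216, 215, 135 and 136 (-3.16 ± 0.21, adjusted p = 0.000124). Its paralog Abcb1b went from 3.03 and 0.826 to 173, 172, 101 and 107 (6.09 ± 0.30, adjusted p = 6.77e-05). The 2 genes are close copies, and reads could be divided between them. Abcg2, the breast cancer resistance protein, was at 657 and 864 and 528, 507, 403 and 421 and was not called (-0.89), while Abcc4 was lower (-2.30) and Abcc1 and Abca3 were higher (3.58 and 1.36). Among BBB receptors and surface enzymes, 5 of 8 tested were lower and 1 higher. Car4, a carbonic anhydrase on the luminal surface, was at 3463 and 3051 in acute ECs and 0.243, 0.482, 0.135 and 0.180 in stabilized cultures (-12.85 ± 0.27, adjusted p = 7.43e-06), with every culture under 0.5. Tfrc, the transferrin receptor, was at 596 and 349.8 and 138, 142, 139 and 141 (-1.99 ± 0.27). Lrp8 and Alpl were lower as well (-4.05 and -5.24), and Insr was lower only without the length offset (-1.52, with it -0.68).

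The transcription factors that mark the BBB state were low in part. Of 7 listed, 5 were called lower, 0 higher and the median was -2.97. Foxq1 went from 63.0 and 78.4 to 8.24, 7.39, 1.89 and 2.19 (-4.78 ± 0.59, adjusted p = 0.000971) and Foxf2 from 88.2 and 109.8 to 59.4, 58.9, 42.1 and 40.6 (-1.49 ± 0.18, adjusted p = 0.000808). Foxl2 and Tcf7 were called lower as well. Foxo1 and Nr2f2 were at -0.97 and -2.58 and were not called.

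Tight junction genes were lower in part. Of 12 tested, 6 were lower and 1 higher, with a median of -1.17. Cldn5, the main claudin of the BBB, was at 2713 and 1463 in acute ECs and 1290.0, 1133, 469 and 560.0 in stabilized cultures (-1.76 ± 0.41, adjusted p = 0.0109). Stabilized cultures 1 and 2 lay just under the lower acute library, and cultures 3 and 4 lay further below. Ocln was at 342 and 538 and 140.4, 128, 71.1 and 75.3 (-2.27), Jam2 was lower (-4.48), and Lsr and Marveld2, of tricellular junctions, were lower as well (-2.92 and -1.94). Tjp1, the scaffold ZO-1, was at 1034 and 1090.4 in acute ECs, 300.3, 329, 171 and 188 in stabilized cultures and 68.6, 91.4, 129.7 and 115 in WT cultures. It was lower than in acute ECs (-1.35 ± 0.25, adjusted p = 0.00411) and higher than in WT cultures (1.22 ± 0.25, adjusted p = 0.0201, with 1.86 within method A and 0.59 within method B). F11r was the member called higher (1.27), which the length offset ended (0.18).

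Genes of caveolae, of which BBB ECs have few, were higher in part. Of 7, 4 were higher (57.1%, against 15.1% of all genes) and 0 lower. Cav1, the main coat protein of caveolae, was at 502 and 442 in acute ECs and 3782, 3568, 5429.7 and 5359 in stabilized cultures (2.94 ± 0.41, adjusted p = 0.00142), with every culture above both acute libraries. Cav2 and Cavin3 were higher by 1.45 and 1.99, and Cavin1 by 1.05, a call the length offset ended (0.84). Plvap, the diaphragm protein of fenestrae and caveolae, was at 28.1 and 4.32 and 43.2, 44.5, 12.6 and 12.0 and was not called (0.51).

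A wider list of 279 BBB genes, taken by the study partly from these acute libraries and so not independent evidence of direction, had 185 members lower, 13 higher and 81 neither, with a median of -1.96. Its median level stood at 22.9% to 29.9% of the acute mean in stabilized cultures. The pan-EC list of 154 genes, of the same origin, had 49 lower and 18 higher, with a median of -0.58.

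Of 25 general endothelial genes, 1 was higher (4%), 6 lower (24%) and 18 neither, against 15.1% higher and 11.0% lower of all genes. The median of 0.22 became -0.28 with the length offset and -0.05 with the method A wells alone, where 6 were higher and 6 lower. With the method B wells alone, 1 was higher and 11 were lower, with a median of 0.10. Pecam1, an adhesion protein of EC junctions, was at 1069 and 939 in acute ECs and 2355, 2223, 863 and 917 in stabilized cultures, and Cdh5, VE-cadherin, at 421 and 378 and 1191, 1259, 752 and 755, and neither was called (0.84 and 0.40), although Cdh5 was called higher with the length offset (1.13). The 6 members called lower included 3 receptors. Flt1, a VEGF receptor, went from 3644 and 2799 to 288, 302, 142 and 137 (-3.66 ± 0.32, adjusted p = 0.000298), Kdr, the main signalling VEGF receptor, from 545 and 425 to 113, 122, 70.4 and 67.1 (-3.21 ± 0.28, adjusted p = 0.000282), and Tek, the angiopoietin receptor, from 368 and 535 to 84.5, 82.8, 31.7 and 32.9 (-3.27 ± 0.38, adjusted p = 0.000794). Elk3, Gata2 and Sox7 were also lower (-1.86, -1.67 and -1.40), the last of them not under the length offset (-0.75). Emcn, a sialomucin of capillaries and veins, was the one called higher, at 313 and 435 against 3541, 3347, 2441 and 2362 (2.66 ± 0.23, adjusted p = 0.000277).

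Genes that follow laminar flow and genes of arteries and veins were measured too. Klf4, a factor induced by flow, went from 278 and 350.2 to 19.2, 18.0, 3.65 and 4.35 (-5.65 ± 0.68, adjusted p = 0.000874), and Klf2 from 261 and 211 to 119, 106, 43.1 and 42.3 (-2.23 ± 0.44, adjusted p = 0.00535). In all, 3 of 8 flow genes were lower and 1 higher, and with the length offset 2 were lower and 0 higher. The members called that way beside Klf2 and Klf4 were Thbd (-1.36, with the offset -0.44) and, as higher, Txnip (1.56, with the offset 0.48). Of 9 arterial genes, 3 were lower, namely Gja4 (-3.99), Hey1 (-1.84) and Stmn2 (-2.70), and Gja5 was higher (1.51). Of 7 venous genes, 2 were lower: Slc38a5, and Ephb4 at -1.02, which the length offset ended (-0.41). For comparison, 15.1% of all genes were higher and 11.0% lower. The shares were 12.5% and 37.5% for flow genes, 11.1% and 33.3% for arterial genes and 0% and 28.6% for venous genes.

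Angiogenic genes of tip cells, the leading cells of sprouts, were high in stabilized cultures. Of 10, 8 were called higher and 0 lower, with a median log2 fold change of 5.69. Angpt2, a ligand of Tek released by sprouting ECs, was at 74.8 and 31.0 in acute ECs and 3249, 3277, 1740.2 and 1727 in stabilized cultures (6.31 ± 0.66, adjusted p = 0.000532). Apln, the apelin peptide of tip cells, was at 51.1 and 5.37 and 2481, 2479, 3412 and 3291 (5.72 ± 1.13, adjusted p = 0.00547), while its receptor Aplnr went from 58.1 and 16.6 to 0.0117, 0, 0.0313 and 0.0407 (-11.81 ± 0.90, adjusted p = 0.000201). Pgf, placental growth factor, rose from 3.72 and 1.75 to 1186, 1161, 857 and 846 (8.85 ± 0.51, adjusted p = 8.87e-05). Esm1, a secreted tip cell marker, rose from 3.15 and 0.618 to 209.7, 227, 115 and 116 (6.24 ± 0.86, adjusted p = 0.00141). Adm, Plaur, Cxcr4 and Mcam were higher by 6.17, 5.65, 4.15 and 2.63. The 2 not called were Dll4 (0.34) and Trp53i11 (1.93).

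Targets of YAP and TEAD, which respond to a stiff substrate and to cell spreading, were high. Of 15, 8 were higher and 0 lower, with a median of 1.64. Ccn2, a matricellular protein, was at 90.9 and 38.4 in acute ECs and 3516, 3517, 5669.8 and 5291 in stabilized cultures (6.07 ± 0.73, adjusted p = 0.000884), and Ccn1 at 85.5 and 164 and 1864, 1909, 2237 and 2008 (3.78 ± 0.35, adjusted p = 0.000342). Ankrd1 had 0 counts in both acute libraries and levels of 81.5, 90.4, 361 and 309 in stabilized cultures, at least 3538-fold higher when acute counts are set to a floor of 3 per library. Crim1, F3, Ajuba and Axl were higher by 3.43, 8.07, 2.83 and 1.64. Amotl2 was higher (1.13) only without the length offset (-0.31).

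Actomyosin genes were higher in more cases in the method B wells, which also differ from the method A wells in animals and sex transcripts. Of 15, 9 were higher (60%, against 15.1% of all genes) and 0 lower (median 2.19). With method A wells alone 7 were higher and the median was 0.99, and with method B wells alone all 15 were higher and the median was 2.5. Tagln, a smooth muscle actin-binding protein, was at 289 and 242 in acute ECs and 507, 565, 4878 and 4566 in stabilized cultures (5.54, adjusted p = 0.016), a call that the length offset ended (3.24, adjusted p = 0.0664). Acta2 was at 349 and 231 and 252, 306, 1543 and 1460.0 and was not called (2.95, adjusted p = 0.0567). For both genes the method B wells lay above the method A wells. Smooth muscle markers as a list summed to 534 and 731 in acute ECs and 774 to 6539 in stabilized cultures, while Myh11, the defining smooth muscle myosin, was at 77.5 and 48.7 and 2.73, 2.69, 6.11 and 5.99. Their part in the result was not tested. Flna, Tpm1 and Tpm4 were called higher with and without the length offset (3.25, 3.19 and 2.23).

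Matrix genes were higher in many cases. Of 18, 9 were higher and 1 lower (50% and 5.56%, against 15.1% and 11.0% of all genes), with a median of 3.06. Thbs1, thrombospondin 1, went from 0.992 and 0.950 to 1887, 2049, 1702 and 1517 (9.85 ± 0.38, adjusted p = 3.41e-05). Tnc, tenascin C, went from 0.0218 and 0.335 to 239, 279, 291 and 259 (11.41 ± 0.80, adjusted p = 0.000156) and Timp1 from 1.45 and 0.682 to 206, 344, 177 and 171 (7.90 ± 0.55, adjusted p = 0.00015). Loxl2, Lox and Col8a1 were higher by 5.84, 3.58 and 2.65. The length offset ended 2 of the calls, for Fn1 (1.10, with it -0.67) and Col4a1 (1.70, with it -0.13). Timp3 was lower (-1.02) and Sparc, at 5168 and 5023 and 4585, 4436, 3752 and 3766, was not called (-0.03).

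**Figure D3:**
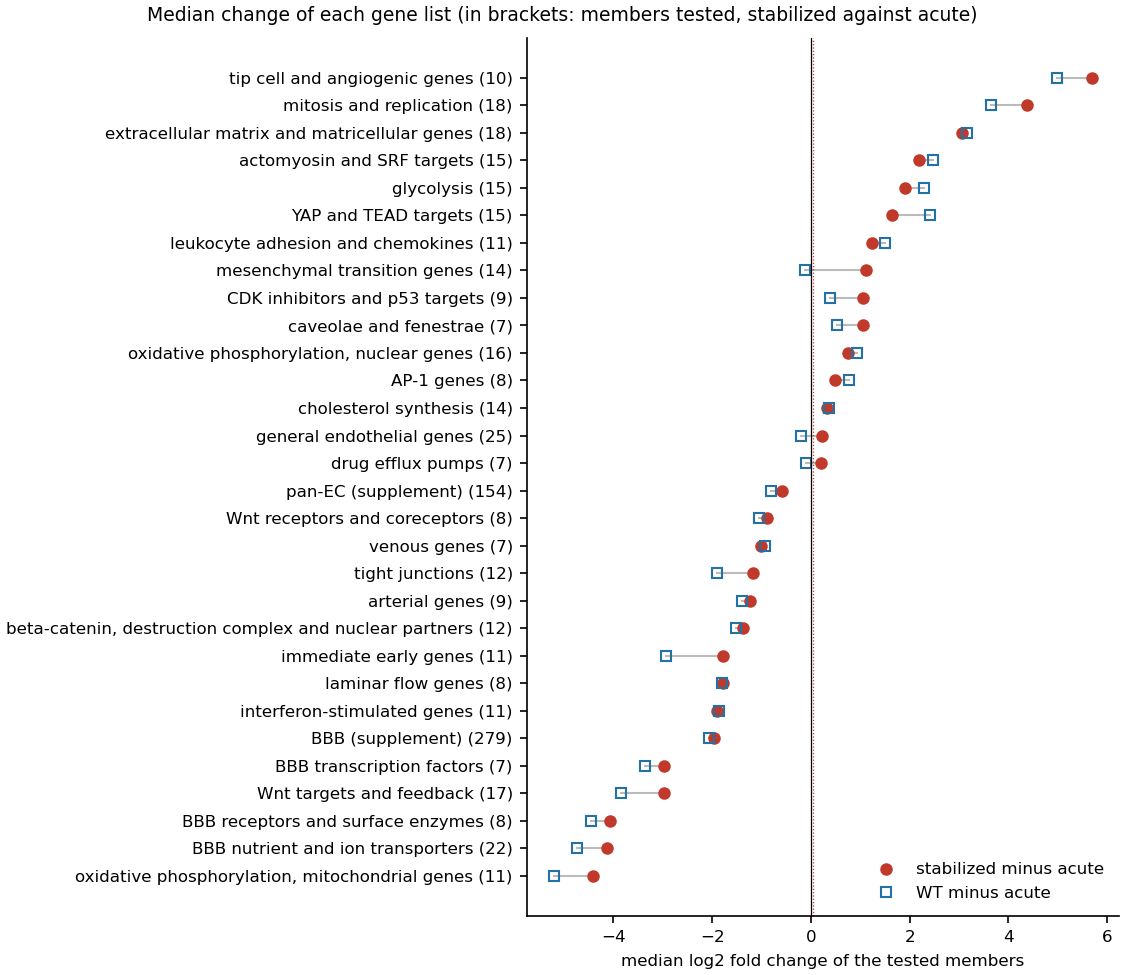
Median log2 fold change over acute ECs of each gene list (1 row per list, with the number of members tested in brackets), for stabilized (filled circles) and WT cultures (open squares), both against the same 2 acute libraries. Tip cell genes (5.69) and mitochondrial genes (-4.41) are the ends of the range for stabilized cultures, and the median of all genes tested is 0.04.

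Genes of mesenchymal transition were mostly not called. Of 14, 4 were higher (28.6%, against 15.1% of all genes), namely S100a6, Vim, S100a4 and Fn1, and 0 were lower. The median of 1.11 was 0.03 under the length offset and -0.03 with the method B wells alone. S100a6, a calcium-binding protein, was at 7.77 and 5.14 in acute ECs and 3678, 3989.9, 5067 and 5005 in stabilized cultures (9.48 ± 0.39, adjusted p = 4.35e-05), and Vim, the intermediate filament vimentin, at 915 and 1112 and 5791, 5423, 3847 and 4093 (2.39 ± 0.26, adjusted p = 0.000613). The transcription factors that define the transition were not called: Snai1 was at 3.57, 4.69, 3.83 and 3.35 in stabilized cultures and Twist1 at 1.59, 3.34, 0.580 and 0.861, and Snai2 and Zeb1 had negative values (-2.49 and -0.98). Fibroblast markers summed to 40.0 and 48.6 in acute ECs and to 39.4 to 130 in stabilized cultures.

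Of 11 genes of leukocyte adhesion and chemokines tested, 2 were higher (18.2%) and 1 lower (9.09%), which is near the 15.1% and 11.0% of all genes. Ccl2, a monocyte chemokine, had 0 counts in both acute libraries and levels of 1920.1, 1687, 247 and 286 in stabilized cultures, at least 4138-fold higher against the same floor. Vcam1, an adhesion receptor for leukocytes, was at 82.2 and 75.6 and 1241, 1093, 230.1 and 265 (2.24 ± 0.76, adjusted p = 0.0418). For both, the method A wells lay above the method B wells. Cxcl12 was lower (-2.03), and these were the 3 members called of 11 tested. Interferon-stimulated genes were lower, 7 of 11 (63.6%, against 11.0% of all genes), with a median of -1.90. Among them were Ifit1 (55.4 and 56.9 against 6.62, 6.25, 1.09 and 2.01, log2 -3.75) and Irf7 (-3.11). Bst2 was the member called higher (1.28), but not under the length offset (0.93).

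Of 18 mitosis and replication genes, 4 were called higher (Top2a, Cdk1, Mcm6 and Rrm2; 22.2%, against 15.1% of all genes) and 0 lower, and 10 were higher with method A wells alone. The median was 4.37, and 17 of the 18 had a positive value. Cdk1, the mitotic kinase, was at 0.527 and 2.31 in acute ECs and 54.0, 51.3, 24.3 and 33.5 in stabilized cultures (5.87 ± 0.43, adjusted p = 0.000174). Ccnb1, a mitotic cyclin, was at 0.607 and 1.36 and 18.5, 19.2, 7.38 and 9.34 (adjusted p = 0.000408) and missed the TPM minimum. The CDK inhibitor Cdkn1c went from 744 and 216 to 3.82, 4.04, 3.17 and 3.04 (-5.99 ± 0.54, adjusted p = 0.000334), and the p53 target Ccng1 from 12.8 and 49.2 to 333, 361, 404 and 408 (3.65 ± 0.23, adjusted p = 0.00012).

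Energy metabolism moved in opposite directions for glycolysis and for transcripts of the mitochondrial genome. Of 15 glycolysis genes, 7 were higher and Pfkm was lower (-1.74), with a median of 1.91. Pgk1, phosphoglycerate kinase, was at 50.8 and 50.4 in acute ECs and 945, 970.2, 2033 and 1947 in stabilized cultures (5.05 ± 0.69, adjusted p = 0.00139), and Aldoa, aldolase A, at 399 and 439 and 1421, 1481, 1911 and 1834 (2.78 ± 0.36, adjusted p = 0.00114). Of 16 nuclear genes of oxidative phosphorylation, 5 were higher and 0 lower (median 0.76). Of 11 mitochondrial genes, 10 were lower and 0 higher (median -4.41), with mt-Cytb at 15411 and 15305 and 1214, 1288, 607 and 579 (-4.41 ± 0.38, adjusted p = 0.000282). Mitochondrial genes held 3.67% and 3.72% of acute counts and 0.403% to 0.974% of stabilized counts. The exception was mt-Co3, at 1.76 and not called.

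Immediate early genes, which tissue dissociation can induce, differed between the 2 acute libraries. Fos was at 41.7 and 484 in acute ECs and 364, 338, 28.5 and 24.3 in stabilized cultures (-0.07, not called), and Jun at 110.2 and 394 and 129.8, 119, 77.9 and 75.3 (-2.19, called lower). Of 11 immediate early genes, 5 were lower, among them the nuclear receptor Nr4a1 (-3.27), and Ier3 was higher (1.01). Among 8 AP-1 genes, Fosl2 was higher (1.58) and Jun lower, shares of 12.5% each that are near those of all genes. Of 14 cholesterol synthesis genes, 3 were higher (Sqle and Insig1 among them) and 2 lower (Dhcr7 and Hmgcs1), shares of 21.4% and 14.3% that are near those of all genes (15.1% and 11.0%).

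The erythrocyte genes Hbb-bt, Hba-a1 and Alas2 had 0 counts in all 4 stabilized libraries. With stabilized counts set to the floor of 3 per library they were at least 52605-fold, 33838-fold and 2997-fold lower. The summed level of such genes differed between the acute libraries as given above. They were not EC-enriched and were singled out after their values were seen. The 10 lowest fold changes of EC-enriched genes included Car4, Slc22a8 and Aplnr. The others were Ddc, aromatic amino acid decarboxylase (498 and 514 against 0.162, 0.216, 0.0800 and 0.110, log2 -12.09 ± 0.44), Slc26a10 (31.4 and 57.4 against 0.0128, 0, 0 and 0), Srarp (127 and 96.9 against 0, 0.107, 0.0883 and 0), Stra6, the retinol transporter (40.2 and 36.2 against 0, 0.0502, 0 and 0.0244), and Ccl21a (442 and 334 against 0.143, 0, 0.580 and 0.518). The last may share reads with its near-identical copies. Gm21970 and Gm10718, gene models also among the 10, may share reads with other genes and are uncertain. The 10 highest fold changes included genes with 0 counts in both acute libraries. Beside Ccl2 and Ankrd1 they were AA467197, at 831, 798, 240.4 and 282 and at least 1735-fold higher, the potassium channel subunit Kcnf1, at 46.8, 50.9, 20.9 and 19.8 and at least 1351-fold higher, and Tmem171, at 29.2, 32.1, 171 and 157 and at least 835-fold higher. Rps27rt, Hist1h4n, Hist2h2aa2, Dynlt1b and Gm49450 completed the 10, and all 5 may share reads with copies or overlapping genes, so that their values are uncertain.

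The most abundant genes were followed as well. Of the 10 most abundant EC-enriched genes of acute ECs, 7 fell (Bsg, Ly6c1, Slc3a2, Selenop, Itm2a, Slco1c1 and Slc2a1), Tmsb4x rose, and Sparc and Tpt1 were not called. Bsg, the glycoprotein basigin that escorts lactate transporters, was at 7278 and 7387 and 996, 923, 976 and 962 (-2.94 ± 0.22, adjusted p = 0.000202). Itm2a, a membrane protein, was at 4625 and 5135 and 183, 177, 241 and 247 (-4.96 ± 0.30, adjusted p = 9.92e-05). Ly6c1, a surface protein of brain ECs, went from 6215 and 7070.3 to 1979.8, 1805, 321 and 371 (-3.06 ± 0.67), with the method A wells above the method B wells. The 10 most abundant genes called higher in stabilized cultures included Tmsb4x, Actb, Eef1a1, Ctla2a, Myl6, Fth1, Actg1, Vim and Rplp1. Tmsb4x, which binds actin monomers, was at 7583 and 8402 in acute ECs and 14934, 14692, 26297 and 25873 in stabilized cultures (1.31 ± 0.46, adjusted p = 0.0475). The calls of Actb, Eef1a1 and Fth1 were ended by the length offset (0.94, -0.12 and -0.17).

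What stayed lost was then defined without the WT libraries of the direct comparison. Culture-lost genes were the 740 EC-enriched genes called lower in WT cultures 3 and 4, libraries of 150 cycles, than in acute ECs, out of 2064 called lower (15.3%), and culture-gained genes were the 2867 called higher there (21.2%). Both definitions share the acute libraries with the stabilized comparison, so that the following counts are a description. Of the 740 culture-lost genes, 528 were called lower in stabilized cultures than in acute ECs and 2 higher, with a median of -1.69 (521 lower and a median of -1.90 for the WT cultures of 36 cycles, where 10.9% of all genes were lower). Relative to the mean acute level, the median culture-lost gene stood at 31.6%, 33.7%, 22.1% and 21.8% in stabilized cultures 1 to 4 and at 23.0%, 26.3%, 20.1% and 17.6% in WT 1, 2, 5 and 6. Under 10% of the acute level were 143, 125, 212 and 204 of the 740 in the stabilized cultures. Of the culture-gained genes, 2859 were tested, 1668 were called higher in stabilized cultures, 1 lower, and the median was 1.66 (1.74 for WT).

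The direct comparison of stabilized with WT cultures used libraries of 1 read format, with the method as a term. Of 13126 genes, 66 were called higher (0.503%) and 10 lower (0.0762%), and the median difference over all genes was 0.01. Levels in the 4 stabilized cultures lay above all 4 WT cultures for 7.01% of genes and below them for 3.80%. These counts rest on wells as replicates and on the method term. With the wells of each culture summed, 3 were higher and 1 lower, and by edgeR without the method term 0 were higher and 0 lower, where the spread between methods enters the error. Of the 34 genes called here that the text names, 31 were not called with the wells summed. Within method A 692 of 12849 were higher (5.39%) and 118 lower (0.918%), and within method B 138 of 12836 (1.08%) and 37 (0.288%). In method B, WT and stabilized mice both carried Ctnnb1flex3 and the WT lacked Cre, while in method A the WT were C57BL/6J. Within method A the sex transcripts also differed with genotype. Xist was at 103 and 129 CPM in WT 1 and 2 and at 0 and 0.0376 in stabilized cultures 1 and 2. Strain, sex and stabilization cannot be told apart there.

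Of the culture-lost genes, 730 were tested here, 13 were called higher in stabilized than in WT cultures and 0 lower, with a median difference of 0.24, and 550 (75.3%) had a positive difference against 51.7% of all genes. Endothelial genes in general had a like share, 69% of the EC-enriched genes tested (median 0.18), 81.8% of the pan-EC list (0.31) and 76% of the general endothelial list (0.46). These lists share members with the culture-lost genes, and the shift is not read as particular to the latter. For the 2064 genes lower in WT 3 and 4, whether EC-enriched or not, the share was 70.1%, but 49.1% within method B (median -0.01). Of the culture-lost genes tested within method A, 87 of 726 were higher and 7 lower (12% and 0.964%, against 5.39% and 0.918% of all genes), and within method B 28 of 727 were higher and 4 lower (3.85% and 0.55%, against 1.08% and 0.288%). With wells summed, 0 were higher and 0 lower. The 13 were Kank4, Vash1, Pdcd4, St8sia6, Plxnd1, Tjp1, Ablim1, Unc5b, Pcdh12, Pcp4l1, Zfp36l1, Adam10 and Uaca. Some of the 13 were not called lower than acute ECs in the WT cultures of the direct comparison. They were Kank4 (-1.08), Vash1 (-0.20), St8sia6 (-1.37), Plxnd1 (-0.19) and Unc5b (-0.09). For these genes a higher level than in WT cannot be read as recovery of a loss. The others of the 13 were called lower there. Plxnd1, a semaphorin receptor, was at 286, 304, 74.8 and 72.3 in stabilized and 89.9, 125, 43.1 and 32.2 in WT cultures (1.24 ± 0.14, adjusted p = 0.00376), and at 133 and 268 in acute ECs. Unc5b, a netrin receptor, was at 181, 185, 47.0 and 49.3 and 92.7, 96.2, 18.6 and 15.5 (1.14 ± 0.15, adjusted p = 0.00619), and Kank4 at 48.7, 48.3, 18.9 and 18.6 and 21.1, 20.6, 3.83 and 3.75 (1.65 ± 0.24, adjusted p = 0.00737). Kank4 overlapped across methods but not within them. In acute ECs Unc5b was at 31.5 and 31.8 and Kank4 at 16.8 and 16.7. For both genes every stabilized culture and the WT cultures of method A lay above acute ECs. The WT cultures of method B lay below them.

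Of the 2867 culture-gained genes, 25 were called higher in stabilized than in WT cultures and 6 lower, and the median difference was -0.07. Of all genes, 0.503% were called higher and 0.0762% lower. Some of the 25 were not called higher than acute ECs in these WT cultures. Ackr3 was called lower there (-1.88), and Sox18 (-0.19), Sh3bp5 (0.03), Mxra7 (0.03) and Fth1 (0.17) were not called. Trp53i11 (0.47), Fam53b (0.53), Tmem176b (0.76), Cxcr4 (2.07) and Spint2 (3.30) were not called there either. Fbp1, Gpx3, Abca4 and Dapk2 (10.01, 5.28, 4.01 and 3.82) missed only the TPM minimum. The others of the 25 were called higher there. With wells summed, 2 were higher and 0 lower. Fbp1, a gluconeogenic enzyme, had 0 counts in acute ECs, 103, 94.5, 29.9 and 41 in stabilized and 1.06, 0.860, 5.50 and 7.32 in WT cultures (4.01 ± 0.83, adjusted p = 0.02), with no overlap. Within method A the difference was 6.66 and within method B 2.32. Cxcr4, the receptor for Cxcl12, was at 16.7 and 16.9 in acute ECs, 447, 411, 97.1 and 122 in stabilized and 90.8, 105, 14.6 and 19.5 in WT cultures (2.29 ± 0.20, adjusted p = 0.00183), with 1.90 within method A and 2.70 within method B. Gpx3, a secreted glutathione peroxidase, and Esm1 were higher (2.16 and 1.94), as were Sox18 (1.20) and Kit (1.71). Ackr3 was higher than in WT (1.82) without being called against acute ECs. Dll4, the Notch ligand of tip cells, is outside the culture-gained list and was likewise higher than in WT only. It was at 58.8 and 111 in acute ECs, 211, 240.5, 51.9 and 68.9 in stabilized and 50.1, 74.6, 17.2 and 14.4 in WT cultures (1.79 ± 0.15, adjusted p = 0.00155). Ankrd1, a YAP target, was at 81.5, 90.4, 361 and 309 in stabilized and 301, 209, 639 and 634 in WT cultures (-1.29 ± 0.17, adjusted p = 0.00619). Nppb (-1.47), Atoh8 (-1.61), Fhl2 (-1.15), Perp (-1.16) and Crct1 (-1.02) were the other 5 of the gained genes that were lower, and Id2 (-1.21), H2-M9 (-1.21), Ankrd37 (-1.17) and Ppp1r14a (-1.18) were lower outside that list.

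**Figure D4:**
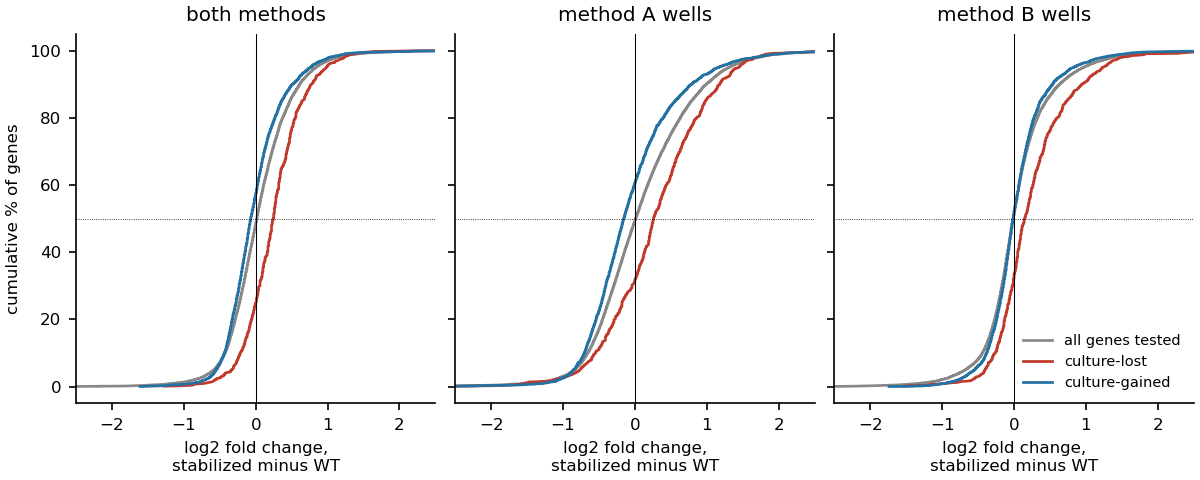
Distribution of the log2 difference between stabilized and WT cultures of 36 cycles as the cumulative percentage of genes, for culture-lost genes, culture-gained genes and all genes tested, with a panel for both methods and for each method. The medians with both methods are 0.24 for culture-lost and -0.07 for culture-gained genes.

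For Wnt targets, stabilized minus WT, 0 of 17 were called and 14 had a positive difference, with a median of 0.72 against 0.01 for all genes. With the method A wells alone 4 of 17 were called higher, against 5.39% of all genes, and with the method B wells alone 0 of 17, against 1.08%. The median was 0.89 in method A and 0.59 in method B. Beside Axin2, positive differences with an adjusted p under 0.05, which 17.4% of all genes had in either direction, were Tcf7 (1.5 ± 0.36), Apcdd1 (1.0 ± 0.17), Nkd1 (0.90 ± 0.17), Spock2 (0.86 ± 0.22), Tnfrsf19 (0.72 ± 0.11) and Ccnd1 (0.78 ± 0.08). Each was too small in fold or too low in level for the call. Lef1 was at 13.0, 16.2, 15.6 and 13.1 in stabilized and 4.57, 5.45, 21.5 and 16.8 in WT cultures, which overlap (0.52 ± 0.40, adjusted p = 0.372). The difference was 1.56 within method A and -0.42 within method B for Lef1, 2.39 and 0.72 for Tcf7, and 2.95 and 2.67 for Axin2.

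Among the stabilized cultures themselves, method B differed from method A in 273 genes higher (2.09%) and 436 lower (3.34%) of 13038 tested. By estimate the genes lowest in method B were Y-linked (Ddx3y, Eif2s3y, Uty and Kdm5d) together with Hist1h4m, and those highest were AC117239.2, Snurf, Tpm3-rs7, Gm11361 and Gm10260. Hist1h4m, AC117239.2, Snurf, Tpm3-rs7, Gm11361 and Gm10260 may share reads with copies or overlapping genes and are uncertain. Since the 2 methods were 1 experiment each, method, animals and sex cannot be told apart. The effect of stabilization over WT also differed between methods for 2048 of 13357 genes (15.3%) at an adjusted p under 0.05 and a log2 difference over 1. That test took wells as replicates, with 1 experiment for each genotype in each method. Differences between single experiments therefore enter the count.

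Chromatin at promoters was compared by the ATAC-seq peaks deposited for 2 acute and 2 stabilized libraries (method B). A promoter was counted as open when a peak lay within 500 bases of any annotated transcript start of the gene. Fold enrichments of peaks are the greatest over those starts. Over all tested genes 83.0% and 82.2% of promoters had a peak in acute ECs and 89.2% and 89.0% in stabilized cultures, from 37453 and 31844 acute against 80075 and 79160 stabilized peaks, so that peak numbers also differed between the groups. Most genes whose RNA was low had a peak in both conditions. Of the 1528 genes called lower, 94.7% and 94.8% had a peak in stabilized cultures, 92.9% had one in all 4 libraries (80.3% of all genes) and 14 (0.916%, against 0.468% of all genes) had one in acute ECs only. Of genes called higher 91.9% had one in all 4 libraries, and of genes not called 76.1%. A call needs the TPM minimum and the set of all genes does not, so that these shares are not matched for expression. Of the 20 transporters called lower, 17 (85%) had a peak in all 4 libraries and 2 in acute ECs only, and of the 9 Wnt targets called lower 9 had one in all 4. The 2 transporters were Slco1c1, with peak fold enrichments of 13.8 and 13.4, and Slc22a8, with 10.8 and 10.5. Peak enrichment differed in direction among these Wnt targets. Axin2 had enrichments of 11.1 and 10.8 in acute ECs and 12.6 and 12.4 in stabilized cultures, and Lef1 and Spock2 were also higher in stabilized cultures. Lower there were Apcdd1 (18 and 19.4 against 10.8 and 10.4), Tcf7 (9.79 and 8.02 against 5 and 4.81), Notum and Nkd1. Tnfrsf19 and Ppard overlapped. Of the 2091 genes called higher, 79 (3.78%) had a peak in both stabilized libraries and in neither acute one, against 5.49% of all genes. Ankrd1 (15.2 and 14.8), Esm1 (7.46 and 6.56) and Apln (5.53 and 6.19) were among them.

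**Figure D5:**
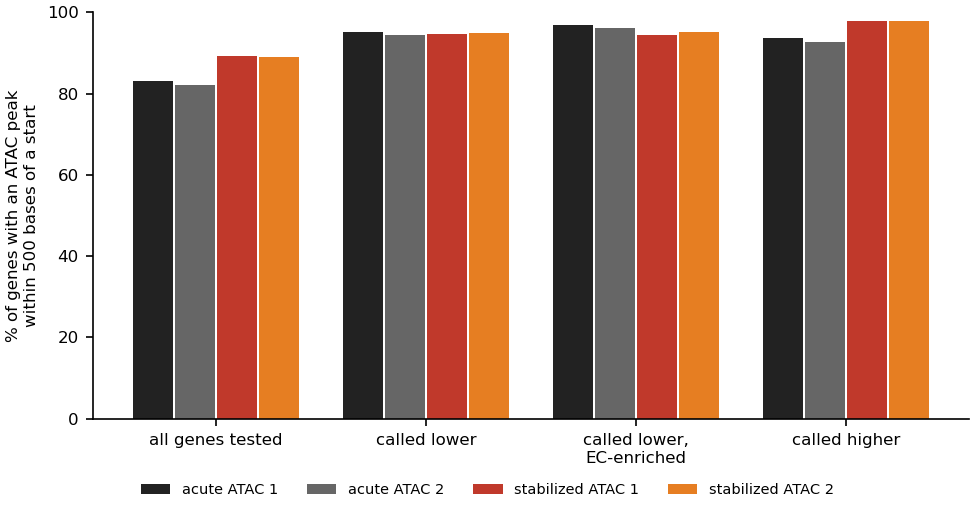
Percentage of genes with an ATAC-seq peak within 500 bases of any annotated transcript start, in each of 2 acute and 2 stabilized libraries. The sets are all genes tested, genes called lower, EC-enriched genes called lower and genes called higher in stabilized cultures. Of genes called lower, 95.2% and 94.5% have a peak in the acute libraries and 94.7% and 94.8% in the stabilized libraries.

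Promoter letters were read from RefSeq (GRCm38.p6), 250 bases before to 50 after the start, for 10791 tested genes, 1196 genes called lower and 1636 called higher. On both strands, the TCF/LEF letters CTTTGAT were in 2.47% of all promoters, 2.76% of those lower and 2.32% of those higher. The TEAD letters GGAATG were in 12.0%, 10.0% and 13.0%, and the AP-1 letters TGANTCA in 5.21%, 4.43% and 5.81%. The TCF/LEF letters were in 0 of the 7 promoters given for Wnt targets called lower, Axin2 among them. A match is a description of letters only. The promoters below were chosen for their matches and are those of a Wnt target that rose (Sp5, chr2:70474673-70474972, plus strand, 1 TCF/LEF match), of a YAP target that had no acute counts (Ankrd1, chr19:36119795-36120094, minus strand, 2 TEAD matches) and of a transporter with a peak in acute ECs alone (Slco1c1, chr6:141524104-141524403, plus strand, 1 TEAD match), with matches in capitals.
Sp5: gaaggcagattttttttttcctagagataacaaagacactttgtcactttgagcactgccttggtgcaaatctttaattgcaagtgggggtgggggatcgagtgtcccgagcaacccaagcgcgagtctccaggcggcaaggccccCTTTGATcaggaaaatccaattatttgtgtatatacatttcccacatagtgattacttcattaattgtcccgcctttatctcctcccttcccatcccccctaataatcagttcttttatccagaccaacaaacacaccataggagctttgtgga
Ankrd1: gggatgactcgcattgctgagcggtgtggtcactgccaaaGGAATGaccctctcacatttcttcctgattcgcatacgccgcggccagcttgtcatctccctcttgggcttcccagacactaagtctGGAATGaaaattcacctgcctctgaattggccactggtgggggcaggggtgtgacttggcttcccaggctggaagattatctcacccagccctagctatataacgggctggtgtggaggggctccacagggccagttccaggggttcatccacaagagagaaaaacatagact
Slco1c1: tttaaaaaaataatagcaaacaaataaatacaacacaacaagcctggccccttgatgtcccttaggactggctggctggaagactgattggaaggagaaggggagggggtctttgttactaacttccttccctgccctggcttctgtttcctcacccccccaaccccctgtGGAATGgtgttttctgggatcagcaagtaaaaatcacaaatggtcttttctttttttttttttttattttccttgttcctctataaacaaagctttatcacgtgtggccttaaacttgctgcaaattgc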

How the data were processed

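RNA-seq was taken from 6 libraries of the main comparison, 4 WT cultures of 36 cycles, 2 WT cultures of 150 cycles and 2 GFP-negative libraries. The authors ran Salmon 0.14.0 on GENCODE M21 transcripts (GRCm38) with bias corrections, and deposited estimated counts and TPM per transcript. They combined cerebrum and cerebellum for acute cells. For ATAC-seq the authors aligned with HISAT2 2.1.0, removed duplicates with Picard and ran MACS2 2.1.2 on every library separately, and the deposited peak files give a fold enrichment (a ratio) and a -log10 q-value. Estimated counts were summed by gene and rounded, and protein-coding genes were tested with edgeR 4.0.16 (R 4.3.3): TMM scaling, filterByExpr and the quasi-likelihood test, with p-values adjusted by the Benjamini-Hochberg procedure. The adjusted p minimum for a call was 0.05, the log2 minimum 1 and the TPM minimum 5. The design of stabilized against acute held the 6 libraries with no covariate, and that of stabilized against WT had the isolation method as a term. Each fit used every gene passing the filter. The scripts were tested on counts simulated from the means and dispersions of these libraries. Recovery means an adjusted p under 0.05 in the right direction. For stabilized against acute, 0.0% of 99 genes changed 2-fold and 41.2% of 97 changed 4-fold were recovered. For stabilized against WT, the shares were 73.2% of 97 and 98.0% of 100. A gene not called against acute ECs therefore cannot be read as unchanged. Named genes were list members, the 10 greatest falls among EC-enriched genes and the 10 greatest rises (called, no overlap of levels), the 10 most abundant EC-enriched genes of acute ECs and genes called higher in cultures, and the 5 called genes with the greatest change in each direction between stabilized and WT cultures and between methods. Further genes singled out were chosen after their values were seen. Some members of the lists are counted but not reported here by name. The members and lists were chosen with earlier results of these data known.

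Alternatives were library size scaling, DESeq2 1.42.0, limma 3.58.1 on log2(TPM + 1), no filter on low counts, an offset for transcript length, no TPM minimum, other sets of libraries, summed wells and each replicate left out. A TPM minimum on the rescaled scale and a stricter peak threshold (-log10 q of at least 10) were added after the data were seen. Wells of a group differed by more than sampling noise (chi-square per degree of freedom 27.5 and 7.5, and 419 for the acute pair), so that each was counted. Depth was 53213098 counts or more in each library of the main comparison, and a count of 0 was read against a floor of 3 counts, which covers counting error only.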

Additional observations from a re-analysis of the deposited data

Results flagged for a closer look

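Among 198 named genes with a level of at least 5 in some stabilized library, 3 had 1 stabilized library far from the other 3. They were Fzd4, with 1 library at 66.9, Perp, with 1 at 24.1, and Gm49450, with 1 at 267. Chance sets about 1 in 20 groups of 4 independent libraries apart in this way. The stabilized libraries come in pairs of wells, so that this share does not apply to them.

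The difference between stabilized and WT cultures was itself different between isolation methods, by an interaction test in edgeR (adjusted p under 0.05 and a log2 difference over 1), for 61 of 212 named genes, against 2048 of 13357 genes in all (15.3%). The named genes include some picked for large differences between stabilized and WT cultures or between methods. The values below are the log2 difference of stabilized minus WT in method B less that in method A. Method, strain of the WT mice, animals and the sex transcripts change together between the methods and cannot be told apart. Wells stood as replicates in the test, so that differences between single experiments enter these values. Genes with a more positive difference in method B were Snurf (5.54), Gja5 (2.37), Notum (2.31), Slco1c1 (2.23), Slc38a5 (2.1), Ly6c1 (1.97), Atoh8 (1.93) and Slc16a9 (1.89). These were followed by Nppb (1.76), Esm1 (1.74), Cdk1 (1.68), Ifit1 (1.61), Slc46a3 (1.59), Hey1 (1.56), Abcg2 (1.5) and Top2a (1.5). A further group was Vcam1 (1.47), Ctla2a (1.43), Selenop (1.32), Slc1a1 (1.32), Ccnb1 (1.31), Id2 (1.27), Kank4 (1.25) and Cldn5 (1.24). The smallest were Ppp1r14a (1.24), Insig1 (1.22), Ocln (1.18), Ankrd37 (1.16), Tpm3-rs7 (1.11), Spock2 (1.06), Bst2 (1.03) and Egfl7 (1.0). Among genes with a greater difference in method A were Ddx3y (-5.97), Fbp1 (-4.33), Snai2 (-2.27), Myc (-2.06), Lef1 (-1.95), Foxl2 (-1.93), Foxo1 (-1.89) and Gata2 (-1.76). These were followed by Gsk3b (-1.75), Gpx3 (-1.74), Snai1 (-1.67), Tcf7 (-1.65), Nr2f2 (-1.63), Tnc (-1.52), mt-Cytb (-1.5) and Fn1 (-1.48). A further group was Fth1 (-1.43), Lrp6 (-1.42), Stmn2 (-1.31), Tjp1 (-1.24), Cdh5 (-1.23), Adam10 (-1.21), Tcf7l2 (-1.20) and Timp1 (-1.19). The smallest were H2-M9 (-1.17), Ppard (-1.08), Slc3a2 (-1.08), Lox (-1.02) and Plvap (-1.01). Spanning both signs, the set includes the BBB transporter Slco1c1 and the mitotic kinase Cdk1 on the side of method B, and the Wnt targets Lef1, Tcf7 and Myc on the side of method A.

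Xist counts were found in libraries labelled as male. They stood at 47.1 and 45.7 CPM in stabilized cultures 3 and 4, at 103 and 129 in WT 1 and 2, and at 88.4 and 50.9 in WT 5 and 6, against 0.581 and 0 in the acute libraries.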

How the results depend on the processing

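Of 2091 genes higher and 1528 lower in stabilized against acute, the counts stayed within 1.5 times under every alternative run except no TPM minimum (3408 and 3210) and limma on log2(TPM + 1) (2211 and 761), with 1959 to 2104 and 1432 to 1504 when a stabilized library was left out and 2123 to 2181 and 1647 to 1918 when an acute one was; the lone acute library is then assumed to vary like the stabilized wells. The replicate block gave 1915 and 1324, but only the numbers 1 and 2 occur in both groups. Stabilized cultures 3 and 4 therefore do not inform its difference. Acute and stabilized libraries share only a number, since the deviations of libraries numbered alike had a correlation of -0.0344. Over the gene lists, 80 members were higher and 99 lower (64 by limma), with 72 to 82 and 96 to 99 when a library was left out. Of 170 named genes called, 153 kept the call with the length offset and 131 with limma. Signs turned with the offset for Amotl2 (-0.31), Col4a1 (-0.13), Eef1a1 (-0.12), Fn1 (-0.67) and Fth1 (-0.17), and with limma for Ephb4 (0.16), Fn1 (-0.13), Hmgcs1 (0.22) and Thbd (0.13).

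Stabilized against WT (66 higher, 10 lower) moved with nearly every choice about replicates. In the replicate block only wells numbered 1 and 2 are in both groups. Its difference therefore comes from the method A wells alone, here and for the culture-lost and culture-gained genes below. The counts were 520 and 79 with the replicate block, 0 and 0 with no term for method, 6 and 0 with all 6 WT libraries, 3 and 1 with wells summed, 692 and 118 in method A, 138 and 37 in method B, 256 and 77 with no TPM minimum, 95 and 2 with limma, and 22 lower with the rescaled TPM minimum. Leaving out 1 library gave 48 to 88 higher and 3 to 10 lower, with 3 lower without stabilized replicate 1, 4 without stabilized replicate 2, 5 without stabilized replicate 4 and 6 without WT replicate 1. With all 6 WT libraries, Sox18 (-0.04), Sox7 (-0.06) and Trp53i11 (-0.54) changed sign.

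Of culture-lost genes, 13 were higher and 0 lower. The counts were 67 and 3 with the replicate block, 0 and 0 with no term for method, 4 and 0 with all 6 WT libraries, 0 and 0 with wells summed, 87 and 7 in method A, 28 and 4 in method B, 29 and 1 with no TPM minimum, and 10 to 17 and 0 with 1 library left out. With every gene called lower in place of the EC-enriched ones, 17 were higher and 1 lower. Of culture-gained genes, 25 were higher and 6 lower. The counts were 129 and 41 with the replicate block, 0 and 0 with no term for method, 1 and 0 with all 6 WT libraries, 2 and 0 with wells summed, 156 and 57 in method A, 46 and 14 in method B, 42 and 12 with no TPM minimum, 40 and 6 with DESeq2, and 19 to 30 and 2 to 6 with 1 library left out. Limma gave 2 lower, the rescaled minimum 11 lower, and lists from all 6 WT libraries 10 higher. With no TPM minimum, GFP-negative cells had 2978 genes higher than GFP-positive cells in place of 1142, and method B differed from method A in 700 genes higher and 1165 lower. The cause of these changes was not tested, apart from those made by fewer samples or by the minimum itself.

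Promoters with a peak made up a mean of 82.6% of all genes in acute and 89.1% in stabilized libraries, 83.3% and 90.2% within 1000 bases, and 78.7% and 85.4% with the stricter peaks. For genes called lower the stabilized mean was 94.8% and became 95.2% and 92.8%, and the acute mean became 93.7% with stricter peaks. For genes called higher the stabilized mean of 97.8% became 98.3% and 96.9%, and the acute mean of 93.2% became 89.8% with stricter peaks.

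The limits are few libraries and shared origins. The acute group has 2 libraries, each method is 1 experiment, and read format, sorting and genotype change with culture. TPM of the deposited files depends on short RNAs, which the call minimum inherits. Genes not called against acute ECs cannot be read as unchanged, whether at the level of the TPM minimum, as Ccnb1 was, or above it.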

Other observations

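Some genes outside the culture-lost and culture-gained lists were called higher in stabilized than in WT cultures. Hlx, a homeobox factor, was at 66.8, 62.1, 15.8 and 19.2 in stabilized and 17.1, 20.8, 4.86 and 6.00 in WT cultures (1.77 ± 0.13, adjusted p = 0.00155), and at 27.6 and 14.9 in acute ECs. Clu, the chaperone clusterin, was at 114, 106, 16.5 and 17.5 and 43.1, 50.3, 3.76 and 3.31 (1.67 ± 0.20, adjusted p = 0.005), and Apod, apolipoprotein D, at 60.0, 52.5, 30.4 and 28.2 and 20.2, 19.7, 7.05 and 9.71 (1.55 ± 0.15, adjusted p = 0.00272). These genes were chosen after their values were seen.

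Markers of other brain cells were lower in stabilized than in acute libraries by sum. Astrocyte markers summed to 238 and 1454 in acute ECs and 27.4 to 40.7 in stabilized cultures, neuron markers to 54.9 and 94.8 against 10.3 to 20.0, oligodendrocyte markers to 94.0 and 334 against 23.1 to 35.7, and microglia and macrophage markers to 2.51 and 14.3 against 0.457 to 3.36. Mog and Olig1 were at 0 in the stabilized cultures.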
